A study of Mus musculus with 4 samples.

Results

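CDS clusters close to the start codon were taken from the IGF2BP3 eCLIP-seq of mouse testis as the clusters whose centre base lay in the first 100 bases of a spliced coding sequence (CDS), on the strand of the mRNA. A CDS had to be at least 600 bases long, and each protein-coding gene was represented by the transcript with its longest CDS. This placed 4619 of 337234 clusters of replicate 1 and 3701 of 216354 clusters of replicate 2 in the start window. Of 21951 protein-coding genes 18384 had a CDS of that length, and 18259 of these windows (99.3%) opened with ATG.

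In eCLIP-seq, ultraviolet light joins proteins to the RNA they touch in the tissue, the RNA is cut into fragments, and an antibody pulls down 1 protein with its fragments (IP). A size-matched input library (SMInput) is made from the same lysate without antibody and shows which fragments are abundant before the pulldown. All 4 libraries came from wild type C57BL/6 testes at 8 weeks of age, germ and somatic cells together and with both testes triturated into 1 suspension, and each of the 2 replicates had 1 IP with the IGF2BP3 antibody and 1 SMInput. The series' design text also names an IgG control and another replicate, which are not analysed here, so each IP is read against its own SMInput. In whole testis, fewer cells of a type and less RNA per cell cannot be told apart.

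IGF2BP3 is a cytoplasmic RNA-binding protein with RNA recognition motifs and KH domains, and it belongs to the family of readers of N6-methyladenosine that stabilise mRNAs and affect their translation. The start of a coding sequence is where the ribosome joins its subunits on the start codon and leaves initiation for elongation. In the testis many mRNAs are made in spermatocytes and round spermatids and stored for later translation, so RNA-binding proteins are a main layer of gene control there.

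For each cluster the deposited values are log2(fold change), the IP share of reads over the SMInput share on a log2 scale, and −log10(P) of that difference. A cluster was called significant where both values were at least 2, the thresholds given in the study's methods. The calls compare the reads of 1 IP library with those of 1 SMInput library. The 2 replicates were read side by side without testing samples against each other, and the intervals below are 95% Wilson intervals that cover counting error only, since clusters of 1 mRNA are not independent. The usable reads, recovered from the listed values as described in the methods, were 5133438 (IP) and 8706391 (SMInput) in replicate 1 and 4637612 (IP) and 16696122 (SMInput) in replicate 2.

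Few start-window clusters were significant. In replicate 1, 157 of 4619 (3.40%, interval 2.91 to 3.96) passed, beside 4.92% of all clusters. In replicate 2, 212 of 3701 (5.73%, interval 5.02 to 6.52) passed, beside 13.2% of all clusters. The significant clusters fell in 145 and 185 genes, while 3612 and 3028 genes had a cluster of any kind in the window. With both thresholds at 3 the shares were 0.563% and 0.919%, and with log2(fold change) of at least 1 they were 8.14% and 14.2%. Among clusters with at least 10 recovered IP and SMInput reads together they were 6.59% and 6.60%, a setting that also drops all clusters with −log10(P) listed at 0. The median log2(fold change) was 0.76 (quartiles 0.08 and 1.35) in replicate 1 and 0.85 (0.31 and 1.43) in replicate 2, beside 1.499 and 1.53 for all clusters. The rest of the CDS had 0.76 and 0.93. The SMInput libraries were deeper, so a cluster with equally many reads in IP and SMInput had a value above 0.

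Most start-window clusters rested on few reads. The median was 8 IP and 6 SMInput reads in replicate 1 and 7 and 13 in replicate 2, over the clusters whose reads could be recovered. For all clusters these medians were lower, at 4 and 2 in replicate 1 and 4 and 6 in replicate 2. The files list −log10(P) as 0 for 1149 clusters (24.9%) of replicate 1 and 564 (15.2%) of replicate 2. The highest entry, 400, was given to 0 and 4 clusters. Of the significant clusters with recovered reads, 26 (16.6%) in replicate 1 and 106 (51.0%) in replicate 2 had fewer than 10 IP reads. Of all significant clusters these were 29.1% and 62.0%, and of those in the rest of the CDS 16.6% and 43.0%.

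The window stood lowest of the CDS segments in both replicates. The next 100 CDS bases had 4.40% (3.84 to 5.05) and 6.89% (6.11 to 7.77) of clusters significant, and the interior of the CDS, from there to 100 bases before the end, had 5.13% (4.97 to 5.29) and 7.75% (7.54 to 7.96). The last 100 bases before the end of the CDS had 9.94% (8.97 to 11.0) and 14.7% (13.4 to 16.1), which is 2.93 and 2.57 times the share of the start window. Across the start codon the shares were close, with 3.74% (3.13 to 4.47) and 5.88% (5.03 to 6.85) in the last 100 bases of the 5′UTR. Relative to the rest of the CDS as a whole, at 5.29% and 7.98%, the start window had 0.643 and 0.718 times the share of significant clusters. The number of clusters did not show this gap. The start window held 2.51 and 2.01 clusters per kilobase of annotated sequence, the next 100 bases 2.41 and 1.96, and the last 100 bases 1.82 and 1.45.

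Inside the mRNAs that had a cluster in their start window, the window was again below the rest of the CDS. There the rest of the CDS had 5.79% of its clusters significant in replicate 1 and 7.80% in replicate 2, against the 3.40% and 5.73% of the windows. Read numbers were compared over all eligible mRNAs and for the clusters with recovered reads, 3347 of 4619 start-window clusters in replicate 1 and 3053 of 3701 in replicate 2. Clusters with −log10(P) listed at 0, which cannot be significant, and at 400 are absent, so these shares are not those of all clusters with such read numbers. The difference was larger among clusters with more reads. Among those with 30 to 99 IP and SMInput reads together, 28 of 619 start-window clusters (4.52%, 3.15 to 6.46) were significant in replicate 1 and 11.3% (10.7 to 11.9) of those in the rest of the CDS. In replicate 2 these were 33 of 871 (3.79%, 2.71 to 5.27) and 8.92% (8.45 to 9.41). With at least 100 reads, 10 of 108 start-window clusters (9.26%, 5.11 to 16.2) and 29.1% of the others were significant in replicate 1, and 11 of 169 (6.51%, 3.67 to 11.3) and 16.5% in replicate 2. With 10 to 29 reads the shares lay nearer, at 7.25% and 9.32% in replicate 1 and 8.24% and 9.56% in replicate 2. Below 10 reads they were 0.896% and 1.27%, and 7.87% and 7.85%.

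Within the window, position made little difference. In steps of 20 bases from the start codon the share of significant clusters ran 3.80%, 3.78%, 3.07%, 3.37% and 3.07% in replicate 1 and 5.73%, 5.75%, 6.28%, 4.94% and 5.89% in replicate 2, all within each other's intervals. On the far side of the window's edge, the next 20 bases had 3.86% and 5.01%. From there to base 300 the steps of 20 bases varied, from 3.31% (bases 181 to 200) to 5.89% (bases 221 to 240) in replicate 1 and from 6.52% (bases 121 to 140) to 8.97% (bases 141 to 160) in replicate 2. The cluster itself covered the start codon in 54 of 157 significant clusters of replicate 1 (34.4%) and 74 of 212 of replicate 2 (34.9%), beside 29.1% and 31.6% of all clusters of the window.

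Coding sequence length did go with the calls. In mRNAs with a CDS of 600 to 899 bases, 45 of 854 start-window clusters (5.27%, 3.96 to 6.98) were significant in replicate 1 and 66 of 677 (9.75%, 7.74 to 12.2) in replicate 2. In those with 2400 bases or more the counts were 17 of 1139 (1.49%, 0.934 to 2.38) and 34 of 875 (3.89%, 2.79 to 5.38). The rest of the CDS showed the same direction, from 9.78% down to 4.10% in replicate 1 and from 15.2% to 6.06% in replicate 2. The split by length was chosen after these data were seen.

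Part of the signal recurred between replicates. Of the 157 significant clusters of replicate 1, 112 (71.3%) overlapped any cluster of replicate 2 by at least 1 base, with a median log2(fold change) of 1.70 there and 97.3% of values above 0. Of the start-window clusters that were not significant in replicate 1, 57.1% overlapped one, with a median of 0.70 and 83.5% above 0. In the other direction significant clusters overlapped less often than the others, 126 of 212 (59.4%) against 67.6%. Their median in replicate 1 was 1.76 with 96.8% above 0, against 0.52 and 74.0%. Over 2112 pairs of overlapping start-window clusters, Pearson's r of log2(fold change) was 0.490 and Spearman's rho was 0.459, given as a description.

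Significant start-window clusters of both replicates overlapped in 28 genes, which is 19.3% of the 145 genes of replicate 1 and 15.1% of the 185 genes of replicate 2. The number was 4 with both thresholds at 3 and 114 with log2(fold change) of at least 1, 13 for the first 50 bases or a CDS of at least 1200, and 49 and 44 for 1 base in the window or a CDS of at least 300. It was 16 without clusters that reached past an exon edge, a choice made after seeing the data. A further gene, Slc25a39, had a significant cluster in both windows without overlap. In another 13 genes the overlapping significant clusters had 1 centre inside the window and the other outside it, at bases from −55 to 155. These were Arl4a, Clip4, Nsun4, Oaz3, Oser1, Rnf148, Tmem56 and 1700017N19Rik at the far edge, and CK137956, Cyb5r4, Prr22, Rhbdd1 and Tcte1 at the start codon. Nsun4, an RNA methyltransferase of mitochondria, was centred at CDS base 99 in replicate 1 with log2(fold change) 3.80 and at base 108 in replicate 2 with 4.64. Oaz3, the antizyme of spermatids that inhibits ornithine decarboxylase, was centred at base 93 in replicate 2 with 2.57 and at base 111 in replicate 1 with 2.96. They were chosen from all such genes after their values were seen.

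Among the 28 genes, those with the largest smaller log2(fold change) of the 2 replicates were 1700028J19Rik, Prr30, Tmem225, Best1, Gpr137, Ncoa6, Spem2, St6galnac2, Prr27, 1700074P13Rik, Gm20671 and Prss58, requiring at least 10 IP reads in each replicate where the reads could be recovered. In 4 of the 28 genes, 1700028J19Rik, Prr30, Tmem225 and Tmem269, log2(fold change) was at least 3 in both replicates, and in 0 it was at least 4 in both. Positions below are mm10 coordinates of the replicate 1 cluster, and bases are counted from the A of the start codon.

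1700028J19Rik, with a coding sequence of 801 bases, had the strongest pair. The cluster at chr7:44232483-44232490, on the minus strand in exon 2, held 128 IP and 16 SMInput reads in replicate 1, or 24.9 and 1.84 RPM (reads scaled to 1000000 usable reads). In replicate 2 it held 132 and 22, or 28.5 and 1.32 RPM. Log2(fold change) was 3.76 and 4.43 and −log10(P) was 36.7 and 81.0, so each IP library stood far above its SMInput library. The cluster was part of a joined stretch, a run of touching significant clusters, that began at base 29, the first base of exon 2, and reached base 198 in replicate 1 and 192 in replicate 2. Exon 1 ended with significant clusters too, at log2(fold change) 2.91 in replicate 1 and up to 3.31 in replicate 2, so the signal crossed the splice junction. The same mRNA had 10 and 9 significant clusters in the rest of its CDS and 10 and 7 in its 3′UTR. At least 1 other basic transcript of the gene places this cluster outside its first 100 CDS bases.

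Prr30, a proline-rich protein gene, had its pair at chr14:101199028-101199038, bases 87 to 97 of the CDS. Replicate 1 had 155 IP and 20 SMInput reads with log2(fold change) 3.72 and −log10(P) 43.9. Replicate 2 had 4.76 with −log10(P) listed at 400, the highest value the files hold, for which reads could not be recovered. The cluster was the upstream end of a run of significant clusters from base 87 to 547 in replicate 1 and 77 to 545 in replicate 2. The first 76 bases lay outside it in both, so the start codon of this densely covered mRNA was not part of the run. The highest value of all start windows in replicate 2, 5.35, was in this run too, centred at base 100.

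St6galnac2 differed from Prr30 in this respect. The annotation holds 2 overlapping genes of this name, and the site lies in the short one, with a CDS of 867 bases, so the sialyltransferase known by the name may not be its product. Its cluster at chr11:116680792-116680861 reached the start codon and covered the CDS from its first base to base 69 in replicate 1 and 75 in replicate 2. It held 359 IP and 95 SMInput reads in replicate 1, 69.9 and 10.9 RPM, with log2(fold change) 2.68 and −log10(P) 75.4. In replicate 2 log2(fold change) was 2.81 with −log10(P) listed at 400. Other significant clusters assigned to this gene numbered 36 and 35 in the rest of its CDS and none in its 3′UTR. Their highest log2(fold change) was 4.64 and 5.01, above the start window.

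The next genes encode membrane proteins. Tmem225, a sperm membrane protein, had 16 IP and 2 SMInput reads in replicate 1 and 11 and 4 in replicate 2 at chr9:40148362-40148431, with log2(fold change) 3.76 and 3.31 and −log10(P) 5.08 and 4.54. Best1, the chloride channel bestrophin 1, had 33 and 7 reads and then 30 and 12 at chr19:9997085-9997147, with 2.999 and 3.17 and −log10(P) 8.13 and 13.6. Gpr137, an orphan receptor family protein of lysosomal membranes, had 44 and 8 and then 43 and 20 at chr19:6940777-6940834, with 3.22 and 2.95 and −log10(P) 11.4 and 17.9. The choice of these genes required all 3 to be higher in the IP than in the SMInput, scaled to library size, in each replicate. The run of significant clusters in Gpr137 went across the start codon, from base −83 to base 171 in replicate 1 and −87 to 88 in replicate 2, base 0 being the last before the CDS. That of Tmem225 lay inside the CDS, from base 37 to 106 and from 43 to 99. Tmem225 rests on few reads.

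Ncoa6 and Spem2 had their clusters around the start codon and downstream of it. Ncoa6, a coactivator of nuclear receptors with a CDS of 6207 bases, had 51 IP and 9 SMInput reads in replicate 1 and 32 and 16 in replicate 2 at chr2:155437982-155438133. Log2(fold change) was 3.26 and 2.85 and −log10(P) 13.4 and 12.8, and both clusters covered the start codon. Spem2, of the family of the spermatid maturation gene Spem1, had 35 and 5 reads and then 25 and 14 at chr11:69818276-69818344, with 3.57 and 2.68 and −log10(P) 9.91 and 9.30. In Spem2 no cluster of the rest of the CDS or of the 3′UTR was significant in either replicate, so the signal sat at the 5′ end of this mRNA. Gm20671 was the 1 gene of the 28 with no other significant cluster assigned to its mRNA in either replicate. It had 10 and 3 reads and then 22 and 12 at chr5:32827023-32827104, with log2(fold change) 2.50 and 2.72 and −log10(P) 2.18 and 8.35.

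Prss58 and 1700074P13Rik, neighbouring genes of the trypsin cluster on chromosome 6, had the site at the same place in their coding sequences. In both the exon with the overlapping clusters began at CDS base 41, and the run of significant clusters in this exon went from there to base 103 and 91 in Prss58 and to base 69 and 78 in 1700074P13Rik. The exon before it held a significant cluster in 1 replicate each, centred at base 19 in Prss58 (replicate 2, log2(fold change) 4.02) and at base 24 in 1700074P13Rik (replicate 1, 2.68). The windows are different sequences, with 41 of 100 bases identical when laid side by side without gaps. Prss58 had 22 IP and 4 SMInput reads in replicate 1 and 14 and 9 in replicate 2 at chr6:40897803-40897867, with log2(fold change) 3.22 and 2.49 and −log10(P) 6.06 and 4.25. 1700074P13Rik had 25 and 6 and then 21 and 13 at chr6:40928652-40928681, with 2.82 and 2.54 and −log10(P) 5.87 and 7.30. Prr27, another proline-rich protein gene, had 11 and 3 and then 12 and 7 at chr5:87837608-87837632, with 2.64 and 2.63 and −log10(P) 2.46 and 3.93, near the threshold in replicate 1. Prr27 also had significant clusters in the exon before, at 2.67 and 2.14, and in replicate 2 in the exon after, at 2.43.

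The first 8 of these genes in order of the smaller log2(fold change) show what the start windows look like. Each line is the mRNA strand of the first 100 CDS bases, 5′ to 3′, from the GENCODE M21 transcripts, and capitals mark the bases covered by significant start-window clusters of both replicates. The windows lie at chr7:44236069-44236096 joined to chr7:44232485-44232556 for 1700028J19Rik, chr14:101199025-101199124 for Prr30, chr9:40148326-40148425 for Tmem225, chr19:9997079-9997178 for Best1, chr19:6940740-6940839 for Gpr137, chr2:155437995-155438094 for Ncoa6, chr11:69818298-69818397 for Spem2 and chr11:116680761-116680860 for St6galnac2. All are on the minus strand except Tmem225, and all are coding exon sequence.
1700028J19Rik: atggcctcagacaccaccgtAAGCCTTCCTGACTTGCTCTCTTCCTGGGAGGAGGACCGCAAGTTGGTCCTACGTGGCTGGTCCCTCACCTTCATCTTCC
Prr30: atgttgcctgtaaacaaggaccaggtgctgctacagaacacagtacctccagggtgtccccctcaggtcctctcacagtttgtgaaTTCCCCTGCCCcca
Tmem225: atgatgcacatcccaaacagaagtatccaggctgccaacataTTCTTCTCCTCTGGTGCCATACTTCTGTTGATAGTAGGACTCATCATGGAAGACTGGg
Best1: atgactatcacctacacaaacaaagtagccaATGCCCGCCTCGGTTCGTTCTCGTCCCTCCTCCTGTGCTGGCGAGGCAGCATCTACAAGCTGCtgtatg
Gpr137: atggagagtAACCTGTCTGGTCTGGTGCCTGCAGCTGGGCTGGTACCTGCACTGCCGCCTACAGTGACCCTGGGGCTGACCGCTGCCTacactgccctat
Ncoa6: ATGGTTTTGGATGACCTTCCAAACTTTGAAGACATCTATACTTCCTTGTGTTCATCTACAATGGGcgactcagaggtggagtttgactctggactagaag
Spem2: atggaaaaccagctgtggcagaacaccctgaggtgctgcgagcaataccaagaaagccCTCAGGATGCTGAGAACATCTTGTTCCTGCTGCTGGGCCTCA
St6galnac2: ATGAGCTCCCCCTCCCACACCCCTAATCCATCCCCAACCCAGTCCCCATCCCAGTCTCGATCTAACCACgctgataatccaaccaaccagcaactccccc
In Ncoa6 and St6galnac2 the shared bases start with the ATG, and in the other 6 they start between base 10 and base 87. The St6galnac2 window has 50 C and 8 G, the most uneven of the 8 in these bases. In the window of 1700028J19Rik the counts are 35 C and 23 G.

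Genes with many reads and a lower fold change came next. Pabpc1, the cytoplasmic poly(A)-binding protein that joins mRNA tails to the initiation complex, had the most recovered reads of any start window in replicate 1. It held 462 IP and 180 SMInput reads in replicate 1, 90.0 and 20.7 RPM, and 354 and 310 in replicate 2, 76.3 and 18.6 RPM, at chr15:36608405-36608476. Log2(fold change) was 2.12 and 2.04, just over the threshold, with −log10(P) 73.7 and 85.5. Gstm5, a glutathione transferase abundant in testis, had 97 and 40 reads and then 78 and 65 at chr3:107895986-107895999, with 2.04 and 2.11 and −log10(P) 15.2 and 20.3. Aqp11, an aquaporin of intracellular membranes, had 66 and 19 and then 60 and 54 at chr7:97737876-97737940, with 2.56 and 2.00 and −log10(P) 13.6 and 14.5. The choice of these genes required all 3 to differ from SMInput, and all 3 were close to the fold threshold in at least 1 replicate. Other basic transcripts of Gstm5 place its site outside the window. The gene belongs to a family with similar sequences, and how reads were divided among its members was not checked.

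The remaining 13 genes were Tmem269, BC049730, 1700021F05Rik, Lrrc46, Arih2, Spatc1, Atp6v1a, Ap2m1, 2310061I04Rik, 1700129C05Rik, Chd1l, Sqle and Cep72. Among them are a ubiquitin ligase (Arih2), the catalytic subunit of the vacuolar proton pump (Atp6v1a), a clathrin adaptor subunit (Ap2m1), a chromatin remodeler (Chd1l), an enzyme of cholesterol synthesis (Sqle) and the centrosomal proteins speriolin (Spatc1) and Cep72. Not every basic transcript of Tmem269 places its site inside the window. The gene had log2(fold change) 4.01 and 3.66 and would have ranked high, but it had 7 IP reads in replicate 2. BC049730 had 8 in replicate 1. Spatc1 differed in reads between replicates, with 124 IP and 20 SMInput reads in replicate 1 and 17 and 12 in replicate 2, where the clusters centred upstream of the start codon took 72 and 69 IP reads.

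The overlapping cluster was seldom the strongest of its mRNA. In 2 of the 28 genes, Tmem269 and Gm20671, it had the highest log2(fold change) of the mRNA in both replicates. It did so in replicate 1 alone in Gpr137, Spem2, Prss58 and Ap2m1 and in replicate 2 alone in Ncoa6 and Cep72. In replicate 2 the highest value of Prss58 and Ap2m1, 4.02 and 3.43, was that of another cluster of the start window. Of the 28 genes, 19 had other significant CDS clusters in both replicates. In 13 a 3′UTR cluster was significant in both. The run of significant clusters left the 100 bases, on 1 side or both, in 19 genes of replicate 1 and 18 of replicate 2, and stayed inside in both replicates in 5. Looking at all genes with a significant start window, 77 of 145 (53.1%) in replicate 1 and 94 of 185 (50.8%) in replicate 2 also had a significant cluster in the rest of the CDS. Of genes whose start-window clusters were not significant this held for 25.4% and 31.2%. For the 3′UTR the shares were 40.0% and 40.0%, against 33.3% and 42.4%, and thus went different ways in the 2 replicates.

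The 28 genes had a median CDS of 1122 bases, beside 1383 for all 18384 mRNAs. For genes with any start-window cluster it was 1512 in replicate 1 and 1515 in replicate 2. A CDS under 1 kilobase was found in 13 of 28 (46.4%), beside 30.7% of all and 23.3% of genes with a start-window cluster. These differences were not tested. The site was in exon 1 in 13 of 28, near the share of all start-window clusters, 44.3% in replicate 1 and 43.9% in replicate 2. Base composition was ordinary. The median GC content of the first 100 CDS bases was 54.0% in the 28 windows, 55.0% and 53.0% in the windows significant in replicate 1 and in replicate 2, 57.0% in all windows with a cluster and 55.0% in all 18384 windows.

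Short sequences were searched on the mRNA strand. The study names GAACA and AAACC as N6-methyladenosine motifs found in the IGF2BP3 peaks shared by its replicates. GAACA was in 4 of 28 windows (14.3%, interval 5.70 to 31.5), beside 10.1% of all windows. GGACT, which also fits the sequence context of N6-methyladenosine, was in 5 (17.9%, 7.88 to 35.6) beside 13.5%. ACACA was in 3 (10.7%, 3.71 to 27.2) beside 6.84%, and AAACC in 1 (3.57%, 0.633 to 17.7) beside 7.47%. Each interval held the share of all windows, and in the larger sets of 145 and 185 windows GGACT was in 11.0% and 14.1%. Of the 8 windows shown, Prr30 and Spem2 held GAACA, Tmem225 and Ncoa6 held GGACT, Prr30 and Best1 held ACACA, and Spem2 held AAACC. Only GGACT of Tmem225 and a GAACA of Spem2 lay within the capital bases, and the other matches lay outside them. A match is a description of the letters.

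Few genes had a significant start window in general, 0.789% of eligible genes in replicate 1 and 1.01% in replicate 2, and the lists of spermatogenesis genes had 0 to 2 each. Of 37 sperm flagellum genes with an eligible CDS, 26 had a cluster in replicate 1 and 21 in replicate 2, beside 19.6% and 16.5% of all eligible genes, and 2 (5.41%) had a significant one in each. In replicate 1 these were Akap3, a scaffold of the fibrous sheath, and Tekt5, a tektin, and in replicate 2 Catsper3, a calcium channel subunit, and Tekt1. Akap3 had 19 IP and 7 SMInput reads with log2(fold change) 2.20 in replicate 1, and 11 and 16 with 1.31 in replicate 2. Tekt1 had 8 and 3 with 3.26 in replicate 2, and 10 and 7 with 1.28 in replicate 1. Tekt5 had 10 and 2 with 3.08 in replicate 1, and 9 and 10 with 1.70 in replicate 2. Each of these genes was above 0 in the other replicate and not significant there, with Catsper3 at 2.21 in replicate 2 and 0.06 in replicate 1. The list's median log2(fold change) was 0.18 and 0.58, beside 0.76 and 0.85 for all start windows.

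Acrosome genes had a cluster in 13 and 17 of 28 genes, and Acr, the protease acrosin, was significant in replicate 2 alone. It had 27 IP and 21 SMInput reads there with log2(fold change) 2.21 and −log10(P) 7.72, and 17 and 11 reads with 1.39 in replicate 1. Crisp2, a secreted protein of the acrosome and sperm tail, had more reads but stayed below the fold threshold, at 1.64 and 1.58 for its highest clusters. Glycolysis genes had a cluster in 12 and 13 of 21, and 0 genes had a significant one, beside 0.789% and 1.01% of all eligible genes. Among the clusters of this list with recovered reads, the most read was that of Ldhc, the lactate dehydrogenase of germ cells. It had 205 IP and 110 SMInput reads with log2(fold change) 1.66 in replicate 1, and 124 and 148 with 1.59 in replicate 2.

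Of 28 ubiquitin pathway genes, 14 and 17 had a cluster, and the testis-specific ring finger genes Rnf133 and Rnf148, which lie next to each other, were significant in the window in 1 replicate each. Rnf133 had 8 IP reads and 1 SMInput read in replicate 1, with log2(fold change) 3.76, and no overlapping cluster in replicate 2. Rnf148 had 9 and 1 in replicate 2 with log2(fold change) 5.02, and 12 and 2 with 3.35 in replicate 1, where the centre of the cluster lay at base 107. The window values of both rest on 1 SMInput read.

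Of 46 germ cell RNA regulators, 30 and 24 had a cluster, and Pabpc1 was the gene of this list significant in both replicates. The list's median was 0.58 and 0.55. Ybx2, the Y-box protein that packages stored mRNAs of spermatids, was among the most read start windows and was not significant. Its highest value in replicate 1, centred at base 2, had 168 IP and 140 SMInput reads with log2(fold change) 1.03, and its cluster in replicate 2, centred at base 71, had 104 and 346 with 0.11. Igf2bp3 itself had no cluster in its start window in either replicate, while its 3′UTR had 1 and 3 significant clusters and the rest of its CDS 3 and 1.

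Of 32 chromatin and histone exchange genes, 16 and 15 had a start-window cluster and none was significant, with highest log2(fold change) 1.39 and 1.85. Of all eligible genes 0.789% and 1.01% had a significant one. Dot1l, the histone H3 methyltransferase, had its clusters at base 49 below 0, at −0.43 and −0.24, with −log10(P) listed at 0. A further cluster at base 83 in replicate 1 was at −0.62, and the replicate 2 cluster overlapping it had 11 IP and 33 SMInput reads with 0.26. Hdac11, a histone deacetylase, had no start-window cluster. Both had significant clusters elsewhere, with 8 and 5 in the 3′UTR of Dot1l and 7 and 5 in that of Hdac11. In these genes the significant clusters were thus in the 3′UTR and not at the start of the CDS.

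Markers of the somatic cells of the testis were read as well. Of 13 Sertoli cell genes, 4 and 3 had a start-window cluster, of 9 Leydig cell genes 5 and 4, and of 10 genes of peritubular, endothelial cells or macrophages 5 and 2, and none was significant. Of all eligible genes 19.6% and 16.5% had a cluster and 0.789% and 1.01% a significant one. Lists this short can hold none at such shares, so no absence is read from them. Clu had the most recovered reads of the Sertoli list, and Amh, Sox9, Fshr and Gata4 had no cluster. The part of somatic cells in the start-window clusters was not tested.

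Several of the most read start windows were below the fold threshold. Dkkl1, an acrosomal protein of spermatids, had 295 IP and 242 SMInput reads in replicate 1 and 308 and 403 in replicate 2, with log2(fold change) 1.05 and 1.46. Clu had 0.82 and 0.79, Gkap1 0.43 and 0.12 and Crisp2 1.56 and 1.58 at their most read clusters. Of the 10 genes with the most recovered reads, Pabpc1 and St6galnac2 were significant in replicate 1, and Pabpc1 in replicate 2. Clusters without recovered reads, which include those listed at 0 or 400, could not be ranked. At the other end, values below −2 were found for 2 clusters in replicate 1 and 1 in replicate 2. Gm21738 was the lowest in both, at −4.38 and −4.47. Ddx46, an RNA helicase of the spliceosome, was also lower in both IP libraries, at −1.82 and −0.92. These genes were chosen after their values were seen.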

How the data were processed

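The values were deposited by the authors for each cluster as −log10(P) and log2(fold change) of IP over size-matched input. According to the submitters' notes, adapters were removed with cutadapt, ribosomal RNA reads with Bowtie2, and reads were aligned to mm10 with STAR. The study methods name Clipper for cluster calling. No chance test was added here. Centres were placed on GENCODE M21 basic transcripts with Python 3.11.15, numpy 2.4.6, pandas 2.3.3, scipy 1.17.1 and bedtools 2.31.1. The placing of centres was tested on simulated data. Each cluster was counted once, for a gene with the centre in its start window first, then in the rest of its CDS, then elsewhere in its mRNA. Ties went to the lowest gene id, so a cluster on overlapping genes counts for a single gene. Usable library sizes were found as those at which whole read counts give back both listed values, and the counts were recovered for 98.9% and 99.2% of clusters with −log10(P) between 0 and 400. Genes were named by the smaller log2(fold change) of the 2 replicates with at least 10 IP reads, as the 6 shared genes with the most IP reads in the poorer replicate or −log10(P) of 400, or from lists written before the files were opened. Members and lists were nonetheless chosen with earlier results of these data known, and the genes marked so in the text were chosen after their values were seen. No column of the deposited files was left unused (0).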

Additional observations from a re-analysis of the deposited data

How the results depend on the processing

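Shares of significant clusters depend on the thresholds and on read depth, clusters of 1 mRNA are not independent, and intervals hold counting error alone. No paired analysis was possible because each table already sets the IP against its own SMInput and no result comes from a test between samples. The share significant (3.40% and 5.73% in replicates 1 and 2) was 0.563% and 0.919% with both thresholds at 3, 8.14% and 14.2% with log2(fold change) of at least 1, 2.57% and 4.42% with a CDS of at least 1200 bases, and 6.59% and 6.60% with at least 10 recovered reads, which also drops clusters listed at 0. The ratio of this share to the rest of the CDS (0.643 and 0.718) was 0.438 and 0.616, 0.842 and 0.894, and 0.546 and 0.614 under the first 3 of these settings, and it was below 1 in 20 of 20 alternatives. The median log2(fold change) (0.76 and 0.85) was 1.03 and 1.0 without clusters listed at 0 or 400, and 0.90 in replicate 1 with at least 10 recovered reads. The 28 shared genes became 4 with both thresholds at 3, 114 with log2(fold change) of at least 1, 13 for the first 50 bases, 49 for at least 1 base in the window, 44 for a CDS of at least 300 bases and 13 for one of at least 1200. They became 16 when clusters past an exon edge were left out, an alternative chosen after seeing the data. With 1 replicate left out the number ranged from 145 to 185, as no overlap was then needed.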
